A study of Mus musculus with 24 samples.

Results

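*Nupr1* and the genes of the integrated stress response were followed in LSK-SLAM cells of young and old mice. The members are *Nupr1*, *Atf3*, *Atf4*, *Atf5*, *Ddit3*, *Trib3*, *Chac1*, *Sesn2*, *Asns* and *Ddit4*, taken by gene symbol from the table of normalized read counts, and 9 of the 10 had a row among the 18762 genes. *Atf4*, the central transcription factor of the pathway, is not analysed here. *Nupr1* was chosen by its measured age difference in these same mice, and the other genes by their place in the same pathway, so all age differences of the members below are a description.

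LSK-SLAM cells are a bone marrow fraction enriched for haematopoietic stem cells (HSCs) and sorted as lineage-negative, Sca-1+, c-Kit+, CD150+ and CD48-. They came from 5 young mice, labelled as 4 to 5 months old, and 7 old mice, labelled as 20 to 22 months old, and the study's text gives other ages. All were C57BL/6 of genotype WT, and the study used the comparison to ask which genes change when HSCs age. From 15000 sorted cells per mouse, 300 pg of RNA depleted of ribosomal RNA entered the library kit. The labels list 24 samples, 2 for each of the 12 mice, and the table has 1 column per mouse, so a mouse was counted once. Sample labels also end in a letter, A (2 young and 4 old mice) or B (3 young and 3 old mice), whose meaning is not given in the sources used here.

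In the integrated stress response, kinases that sense missing amino acids, misfolded proteins in the endoplasmic reticulum, missing haem or double-stranded RNA phosphorylate the initiation factor eIF2. Most translation then slows, while the mRNA of *Atf4* is translated better, and ATF4 with its partner CHOP, the product of *Ddit3*, switches on genes for amino acid supply, for restraint of mTORC1 and, when stress lasts, for cell death. *Nupr1* codes for a small chromatin-associated stress protein that is among the genes induced by this pathway. HSCs are known for low rates of protein synthesis, and the pathway is one of the means by which they answer stress.

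ATF4 binds together with C/EBP factors to elements with the core TGATGNAA, where N is any base. These letters were searched on both strands in RefSeq windows (GRCm38.p6) from 250 bases before to 50 bases after each start site, and the matches are shown because the element is the usual link between ATF4 and a target gene. The 9 members with a row had 10 windows, and 5 windows of 5 genes held the letters, against 3.97% of the 32851 windows of all genes and 2.39% of the 12380 windows of genes tested here. The stretches read 5′ to 3′ on the strand of the gene, and capitals mark the 8 matching letters or their reverse complement.
Nupr1, chr7:126625562-126625591, minus strand, 110 bases before the start: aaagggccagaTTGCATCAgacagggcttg
Atf3, chr1:191183425-191183454, minus strand, 110 bases before the start: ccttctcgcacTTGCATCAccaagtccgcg
Chac1, chr2:119351038-119351067, plus strand, 193 bases before the start: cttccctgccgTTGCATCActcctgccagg
Asns, chr6:7693214-7693243, minus strand, 23 bases before the start: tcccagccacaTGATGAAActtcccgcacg
Trib3, chr2:152344028-152344057, minus strand, 15 bases into the transcript: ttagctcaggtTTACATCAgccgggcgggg
*Nupr1*, *Atf3* and *Chac1* shared the same 8 letters, in the same orientation. The printed stretches of *Nupr1*, *Asns* and *Trib3* overlap annotated exons of the gene itself in GENCODE. The windows of *Atf5*, *Ddit3*, *Sesn2* and *Ddit4* did not hold TGATGNAA. Neither the cyclic AMP response element TGACGTCA, found in 1.79% of all windows, nor the endoplasmic reticulum stress element (CCAAT and CCACG set 9 bases apart), found in 0.119%, occurred in the window of any member. A match of letters is a description of the window and says nothing about binding in these cells.

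Recovered reads on genes numbered 0.861 to 3.11 M (M is 1000000) in mice of letter A and 3.23 to 5.12 M in mice of letter B, so every A library was shallower than every B library. The genes of the sort gate and of stem cells were present in all mice: *Kit* had at least 546, *Mecom* at least 160 and *Hlf* at least 332 normalized read counts, while *Cd48*, shut out by the gate, reached at most 11.8. Old mouse 6 stood apart in markers of other cells: genes of neutrophils and monocytes summed to 3624 normalized read counts there and to 229 to 1184 in the other 11 mice, erythroid genes to 779 against 86.0 to 430.2, and progenitor genes to 1034 against 102 to 423. Old mouse 5 had the lowest sums of genes kept by the gate (624) and of stem cell genes (902). Its sums of B cell genes (174) and of T and NK cell genes (148) were the highest. S-phase and G2/M genes summed to 1775 to 3226 in young and to 1317 to 2136 in old mice, which overlap.

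*Nupr1* (chr7:126623249-126630861, GRCm38) was about 3 times as abundant in old as in young mice. The young mice had 33.0, 20.7, 18.8, 25.1 and 42.9 normalized read counts, and the old mice ranged from 51.3 over a median of 85.4 to 139. Every old mouse thus lay above every young mouse, also within letter A (20.7 and 33.0 in young against 51.3 to 85.9 in old mice) and within letter B (18.8 to 42.9 against 70.5 to 139). How many of all genes separate the ages in this way is not given here, and *Nupr1* was chosen by its age difference. All 7 old mice lay above all young mice in *Cd53*, *Dennd5b*, *Sult1a1* and *Vldlr* too, which are named below. The means of *Nupr1* were 28.1 ± 9.91 (SD, n = 5) and 83.6 ± 27.8 (SD, n = 7), a ratio of 2.97 and a difference of 1.54 (standard error 0.25) on the scale of log2(value + 1). Between 43 and 715 reads per mouse stand behind these values. In RNA of sorted populations, more cells with a transcript and more transcript per cell cannot be told apart. A share of 0.686% of its 50-base words is found in another gene too, mainly in *Gm28587*, a lincRNA. Old mouse 6, which stood apart in markers of other cells, had 85.9, and without it the log2 fold change was 1.53, and *Nupr1* no longer passed an adjusted p of 0.05 over all genes, nor did it without young mouse 3 or 4 or old mouse 1, 2 or 3. The part of these cells, and of the lower S-phase and G2/M sums of old mice, in the difference was not tested.

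**Figure D1:**
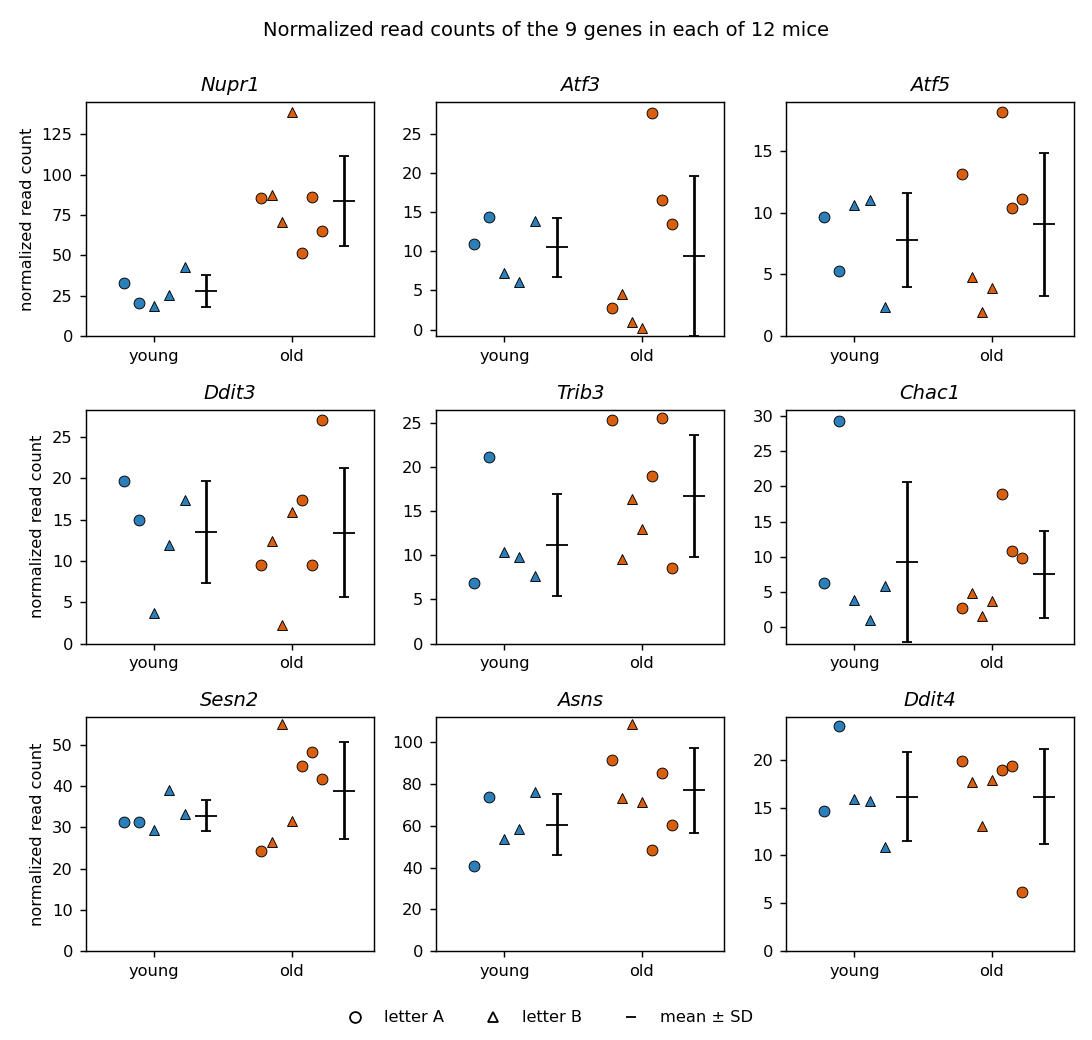
Normalized read counts of 9 genes in each of 12 mice. Points are mice, with circles for letter A and triangles for letter B, blue for young (n = 5) and orange for old (n = 7), and the black bars give the mean and SD, which reach below 0 for Atf3 and Chac1. The old mice sit above all young mice for Nupr1, from 51.3 to 139 against 18.8 to 42.9, while the ages overlap for the other 8 genes. How many of all genes separate in this way is not given here.

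The other members did not separate the ages. Over all mice, 6 members averaged 10 or more normalized read counts, the filter of the fit. Among them *Nupr1* was the 1 that passed an adjusted p of 0.05, beside 0.105% of all genes tested (13 of 12354), and nothing is read from that count because *Nupr1* was chosen for it. *Atf3*, *Atf5* and *Chac1* had means of 9.88, 8.52 and 8.23 and were fitted among all 17647 genes with a mean of at least 1. The intervals below are 95% intervals of the log2 fold change, old minus young, from limma.

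Among the transcription factors, *Ddit3* (chr10:127290774-127296288), which codes for CHOP, had 19.6, 14.9, 3.73, 11.97 and 17.3 normalized read counts in young mice and 2.28 to 27.1 in old mice, with a median of 12.4. The means were 13.5 ± 6.16 (SD, n = 5) and 13.4 ± 7.79 (SD, n = 7), and the log2 fold change was -0.08 with an interval from -1.22 to 1.06. The lowest and the highest mouse were both old, so that neither age stood above the other. Exons of *Ddit3* share 68 bases with the oppositely directed *Mars*, and 3.27% of its 50-base words occur in a second gene model of the same name.

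*Atf3* (chr1:191170296-191218039), a stress-induced repressor that also belongs to the immediate early genes, had 10.9, 14.4, 7.26, 6.08 and 13.8 normalized read counts in young mice. In old mice it ran from 0.194 over a median of 4.55 to 27.6, and 4 of the 7 lay below all young mice while 2 lay above them. Its spread on the log2 scale was 1.71 (SD, n = 7) in old against 0.50 (SD, n = 5) in young mice, and its log2 fold change was -0.82 with an interval from -2.31 to 0.67. The lowest value, in old mouse 4, rests on 1 read. *Atf5* (chr7:44812256-44816658), which like *Atf4* is translated better when eIF2 is phosphorylated, had 7.77 ± 3.79 (SD, n = 5) and 9.05 ± 5.78 (SD, n = 7), with an interval from -1.11 to 1.30. Its exons share 82 bases, 4.11% of their length, with *Nup62* and *Il4i1* on the other strand, and whether reads were counted by strand is not given in the sources used here.

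The targets that act on signalling and survival were alike in overlap. *Trib3* (chr2:152337422-152344032), a pseudokinase induced by ATF4 and CHOP that restrains both, had 6.84, 21.2, 10.4, 9.81 and 7.64 normalized read counts in young mice and 8.61 to 25.5 in old mice, with a median of 16.3. The means of 11.2 ± 5.77 (SD, n = 5) and 16.8 ± 6.90 (SD, n = 7) gave a log2 fold change of 0.55 with an interval from -0.31 to 1.42, and 2 of 7 old mice lay above all young mice. *Chac1* (chr2:119351229-119354381), which breaks down glutathione, had 6.22, 29.3, 3.92, 0.981 and 5.88 in young mice and 1.63 to 18.9 in old mice, with a median of 4.81. No old value of *Chac1* fell outside the young range, whose upper end young mouse 2 alone moved from 6.22 to 29.3, and the interval ran from -1.41 to 1.41.

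*Asns* (chr6:7675169-7693254), the enzyme that makes asparagine and a classical ATF4 target, had 40.7, 73.6, 53.8, 58.3 and 76.1 normalized read counts in young mice and 48.1 to 108 in old mice, with a median of 73.1. Its means were 60.5 ± 14.6 (SD, n = 5) and 76.8 ± 20.1 (SD, n = 7), and 3 of 7 old mice lay above all young mice. The log2 fold change was 0.33, with an interval from -0.13 to 0.79. *Sesn2* (chr4:132492032-132510501), a leucine sensor that holds back mTORC1, was the steadiest member in young mice, at 32.9 ± 3.70 (SD, n = 5), and more spread in old mice, at 38.9 ± 11.6 (SD, n = 7). Of the old mice, 4 lay above and 2 below all young values, and the interval ran from -0.31 to 0.69. *Ddit4* (chr10:59949669-59951834), another brake on mTORC1 that glucocorticoids also induce, had equal means of 16.1 ± 4.62 (SD, n = 5) and 16.1 ± 4.95 (SD, n = 7), with an interval from -0.79 to 0.72.

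**Figure D2:**
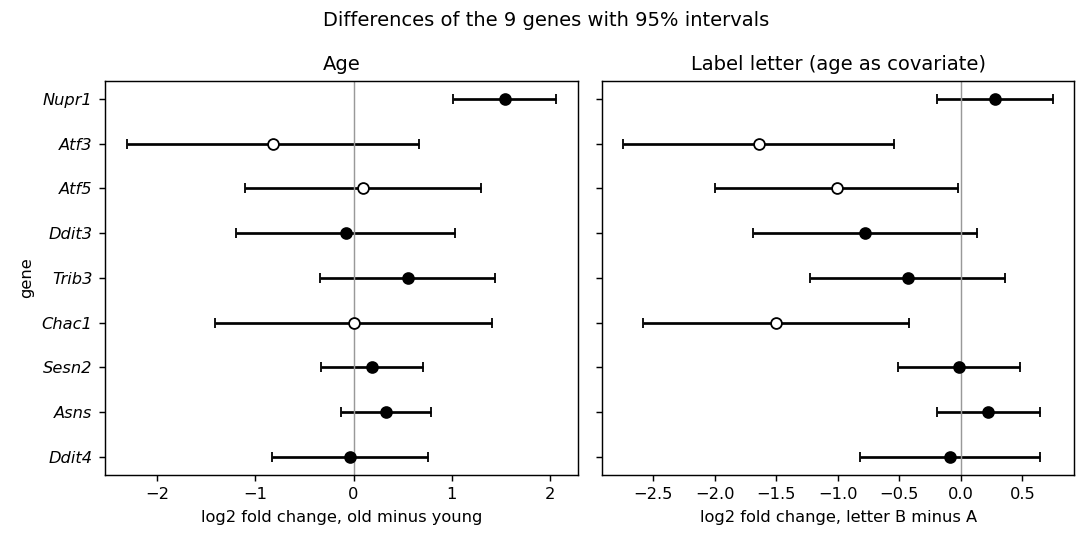
Log2 fold changes (points) with 95% intervals (bars) of the 9 genes, for age on the left (old minus young) and for the label letter with age as a covariate on the right (B minus A), from fits over all genes with a mean of at least 1. Open points are genes with a mean under 10. For age the interval of Nupr1 alone leaves out 0, and for the letter those of Atf3, Atf5 and Chac1 do.

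Per kilobase of exon, *Asns* and *Nupr1* were the most abundant members, with means over the 12 mice of 25.6 ± 7.01 and 24.0 ± 14.2 normalized read counts per kilobase (SD, n = 12). *Asns* lay above *Nupr1* in 6 of 12 mice, all 5 young mice among them. *Sesn2* followed at 10.5, *Ddit4* at 9.19, *Ddit3* at 7.86, *Trib3* at 6.79, *Chac1* at 5.03, *Atf3* at 4.59 and *Atf5* at 4.27 per kilobase. By age, *Nupr1* had a mean of 11.2 per kilobase in young and 33.2 in old mice, below *Asns* in the first (22.1) and above it in the second (28.1). Among young mice the values of each gene overlapped those of the next in that order, although *Asns* lay above *Nupr1* within each young mouse. Whether neighbours differ within mice was not tested. In old mice the lowest values of *Nupr1* (20.4) and *Asns* (17.6) lay above the highest of *Sesn2* (15.9), the next gene in the order, while *Nupr1* and *Asns* overlapped, as did the neighbours below *Sesn2*.

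The label letter, which played no part in the choice of genes, was tested with age as a covariate. None of the 6 members with a mean of at least 10 was called, beside 36.1% of the 12354 genes tested (1301 higher and 3161 lower in B). *Nupr1* differed between the letters by 0.28 on the log2 scale (B minus A, standard error 0.24, interval from -0.20 to 0.76, limma adjusted p = 0.364). For *Asns*, *Sesn2* and *Ddit4* the differences were 0.22, -0.02 and -0.09, and for *Trib3* and *Ddit3* they were -0.43 and -0.78, with intervals that included 0. When the values were rescaled by median ratios, 3356 genes were higher and 2288 lower in B, and the median difference of all genes moved from -0.09 to 0.24, so the direction of the letter difference over all genes rests on the scaling, and again none of the 6 members was called.

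Of the 3 members with lower counts, *Atf3* and *Chac1* were lower in letter B. *Atf3* had 14.3 ± 8.11 normalized read counts in A and 5.48 ± 4.94 in B (SD, n = 6 each), a log2 fold change of -1.65 with a standard error of 0.54 (limma adjusted p = 0.0189). *Chac1* had 13.0 ± 9.68 in A and 3.49 ± 1.87 in B (SD, n = 6 each), a log2 fold change of -1.503 with a standard error of 0.53 (limma adjusted p = 0.0272), and 5 of the 6 A mice lay above all B mice. *Atf5* had a log2 fold change of -1.01 and was not called (limma adjusted p = 0.0958). Low genes as a whole moved the same way: among all 17647 genes of this fit 37.0% were called, 29.0% lower and 7.92% higher in B, and among the 5293 genes with a mean of 1 to 10, 34.8% were called lower. Without the age covariate the median difference of these 5293 genes was -1.11, with 93.8% of them lower in B, against -1.46 for both *Atf3* and *Chac1* and -0.998 for *Atf5*. After all mice were thinned to the reads of the shallowest, *Atf3* and *Chac1* had -2.08 and -1.84 (limma adjusted p = 0.0130 and 0.0236), beside a median of -1.15 for the low genes, of which 24.9% were called lower. After rescaling they had -1.41 and -1.24 (limma adjusted p = 0.0260 and 0.0434), beside -0.90 and 26.6%. The letter calls are thus read against a general shift of low genes, and nothing particular to these members was tested. *Atf3* was no longer called without old mouse 4 (adjusted p = 0.0695) or old mouse 5 (adjusted p = 0.0563), and *Chac1* without young mouse 2 (adjusted p = 0.140), young mouse 4 (0.0647), old mouse 3 (0.0612) or old mouse 5 (0.0631).

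Heat shock genes, listed as genes induced by heat or handling of cells, summed to 519 to 833 normalized read counts in the 6 A mice and to 2089 to 2685 in the 6 B mice. The largest values in the sum were those of *Hspa8* (217 to 385 in A, 1257 to 1709 in B) and *Hsp90aa1* (63.9 to 191 and 454 to 707). *Hspa1a*, *Hspa1b* and *Hspb1*, also on the list, averaged under 10 and were not tested. Of the 5 tested genes of the list, 3 (60%, beside 36.1% of all genes) were called higher in B and none lower, and 4 after rescaling. As scaled, the 3 were *Hspa8* (2.37 on the log2 scale), *Hsp90aa1* (2.04) and *Dnaja1* (0.96), while *Dnajb1* (0.26) and *Hsph1* (-0.41) were not called. Outside this list, *Ppp1cc* (3.48) and *Eif2s3x* (2.71) were also called higher in B. Over all 12354 genes tested, 1301 were called higher and 3161 lower, so the gap was not seen in heat shock genes alone. The immediate early genes summed to 1045 to 3669 in A and to 1561 to 3188 in B, which overlap. *Atf3* and *Chac1* thus ran against the sum of the heat shock genes across the letters, in which *Hspa8* and *Hsp90aa1* had the largest values. The part of handling in the difference of *Atf3* and *Chac1* was not tested. Whether the age difference of a member itself differed between the letters was tested with an interaction term, and none of the 9 members was called. For *Nupr1* that term was 0.37 with an interval from -0.63 to 1.36 (limma adjusted p = 0.9998). In all, 2 genes were called in that test and 424 had an unadjusted p under 0.05.

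The wider pathway was read through 15 lists, which also took in p53, glucocorticoid, immediate early, heat shock and S-phase and G2/M genes. The lists had 180 genes in the table, of which 169 had a mean of at least 10. A single gene of them, *Vldlr*, passed the test for age, against 0.105% of all genes. The lists were chosen with earlier results of these data known, so their age calls are a description too. *Vldlr*, a lipoprotein receptor that ATF4 induces, had 73.4, 76.4, 90.8, 87.5 and 75.8 normalized read counts in young mice and 103 to 357 in old mice, with a median of 228. All old mice lay above all young mice, within each letter too, and how many of all genes separate in this way is not given here. The log2 fold change was 1.44 ± 0.24 (standard error), past the threshold in limma (adjusted p = 0.0234). That call, in the fit without the letter, was lost when young mouse 1, 3, 4 or 5 or old mouse 1, 2 or 3 was left out. With the letter as a covariate and all mice, the log2 fold change of *Vldlr* was 1.53 (limma adjusted p = 7.15e-05). Letter A holds 2 of the 5 young but 4 of the 7 old mice, so a gene that differs between the letters carries part of that difference into its age estimate, and some values with the letter as a covariate are given below.

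Upstream of ATF4, none of the 10 tested genes listed for eIF2 kinases and phosphatase subunits and none of the 7 listed for eIF2 and eIF2B subunits was called. The median log2 fold changes were -0.16 and -0.15, beside -0.02 over all genes, and 0.02 and -0.03 with the letter as a covariate. *Ppp1r15a* (GADD34), which brings the phosphatase to eIF2 and ends the response, had 121 ± 51.2 (SD, n = 5) and 87.7 ± 33.0 (SD, n = 7), a log2 fold change of -0.46 (limma adjusted p = 0.9997). *Eif2s1*, the subunit that is phosphorylated, also had -0.46. *Eif2a*, counted among the 7 although it codes for the separate initiation factor eIF2A and not for a subunit of eIF2 or eIF2B, had -0.32. *Eif2s3x* had -0.96, which became -0.50 with the letter as a covariate. None of these 4 passed the test.

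Among 17 partners and related bZIP factors none was called. In *Fosl2*, a member of the AP-1 family, the young mean was 55.3 ± 17.2 (SD, n = 5) and the old mean 99.5 ± 13.3 (SD, n = 7), with 6 of 7 old mice above all young mice, a log2 fold change of 0.88 and a limma adjusted p of 0.174, which became 0.0337 with the letter as a covariate. *Cebpa*, a myeloid factor of the C/EBP family, had 7.03 and 12.3, a log2 fold change of 0.87 with a standard error of 0.58.

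The classical ATF4 targets of amino acid metabolism did not pass the test, with 0 of 13 enzymes, 0 of 9 amino acid transporters and 0 of 12 tRNA synthetase genes called and medians of -0.15, -0.18 and -0.21. Their estimates were more often negative than positive, with 8 of 13, 6 of 9 and 9 of 12 below 0, as were 6462 of the 12354 genes tested. *Phgdh*, which opens serine synthesis, had a log2 fold change of -0.69, as had the mitochondrial one-carbon enzyme *Mthfd2*, which had -0.98 with the letter as a covariate. The glutamine transporter *Slc1a5* had -0.57 and the cystine transporter *Slc7a11* 0.35 (0.11 with the letter as a covariate), and the synthetase genes *Mars* and *Gars* had -0.41 and -0.32. The direction of *Nupr1* was fixed by the way it was chosen, so nothing is read from setting it beside these medians.

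Of the 12 other ATF4 and CHOP targets, 1 was called, which is *Vldlr*, and the median was 0.09. *Bcl2l11* (BIM), which promotes cell death and is a CHOP target, had a log2 fold change of 0.61 (limma adjusted p = 0.9997). None of 14 genes of mTORC1 and its brakes was called, with *Nprl2* at -0.84 and *Nprl3* at 0.42, both subunits of the same complex that restrains mTORC1. None of 16 endoplasmic reticulum chaperones and other genes of the unfolded protein response was called, with a median of -0.01, *Hspa5* (BiP) at -0.39 and *Derl2* at -0.27.

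The 8 tested genes for proteins that bind NUPR1 all had negative estimates, as had 52.3% of all genes tested. Their median was -0.30, and none was called. Of them, 4 were called higher in letter B, beside 36.1% of the 12354 genes tested called in either direction (1301 higher and 3161 lower). With the letter as a covariate all 8 stayed negative, beside 57.3% of all genes, and the median was -0.23. *Trp53* had -0.46 and *Ptma*, prothymosin alpha, -0.58, which became -0.32 and -0.19 with the covariate. Members also answer to other inputs, and of their targets 0 of 13 p53 targets, 0 of 7 glucocorticoid targets, 0 of 12 immediate early genes and 0 of 5 heat shock genes were called, with medians of 0.07, -0.19, 0.10 and -0.28, the last being -0.07 with the letter as a covariate. Named by the same rule, *Perp* and *Fas* had 0.56 and 0.63, *Tsc22d3* and *Klf9* had -0.39 and -0.51, and *Fos* and *Egr2* had 0.48 and 0.79, the last being 0.43 with the letter as a covariate. *Hsp90aa1* and *Hspa8* had -0.37 and -0.51, which became -0.02 and -0.10 with the covariate, and both were over 2 higher on the log2 scale in letter B. Of the 19 S-phase and G2/M genes 18 had negative estimates, with a median of -0.67, and 14 had an unadjusted p under 0.05, as had 3.95% of all genes (488 of 12354), but none was called, with *Mki67* at -0.78 and *Aurka* at -0.83.

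**Figure D3:**
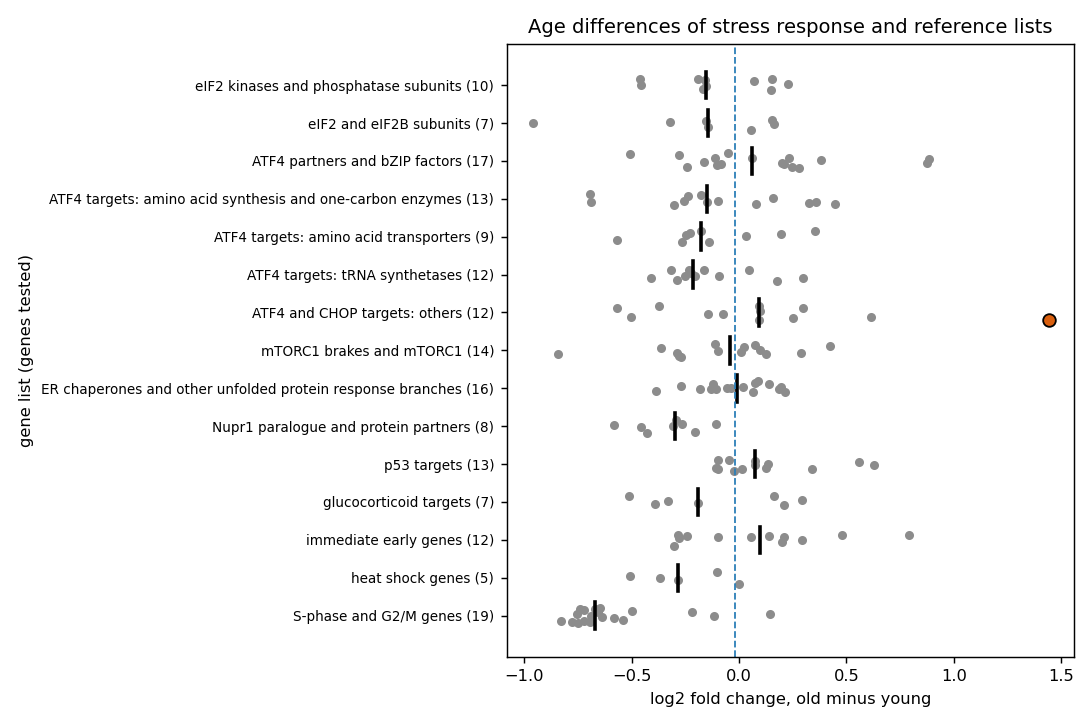
Log2 fold changes for age (old minus young) of the tested genes of 15 lists, 1 point per gene, with the number tested in brackets. Black bars are list medians, the dashed blue line is the median of all genes at -0.02, and the large orange point is Vldlr at 1.44, the gene that passed the test. The S-phase and G2/M list has the lowest median, at -0.67.

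Across the 12 mice the members did not rise and fall as a block. Over the 28 pairs without *Nupr1* the median Pearson r of log2(value + 1) was 0.14, with 17 of 28 positive, and over the 8 pairs with *Nupr1* it was 0.01, with 4 of 8 positive. After centring on the 4 age-by-letter means the medians were -0.05 and -0.20. The highest pairs were *Atf3* with *Chac1*, at 0.70 as measured and 0.72 after centring, and *Trib3* with *Ddit4*, at 0.62 and 0.79. At the other end stood *Atf5* with *Asns*, at -0.56 and -0.70. Of the 36 pairs, 18 lay between -0.3 and 0.3 both times, 5 kept 1 sign at 0.3 or more in size and 6 changed sign. The points share libraries and depth, and *Atf3* and *Chac1* rest on as few as 1 and 5 reads, so these values are given as a description without a test.

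**Figure D4:**
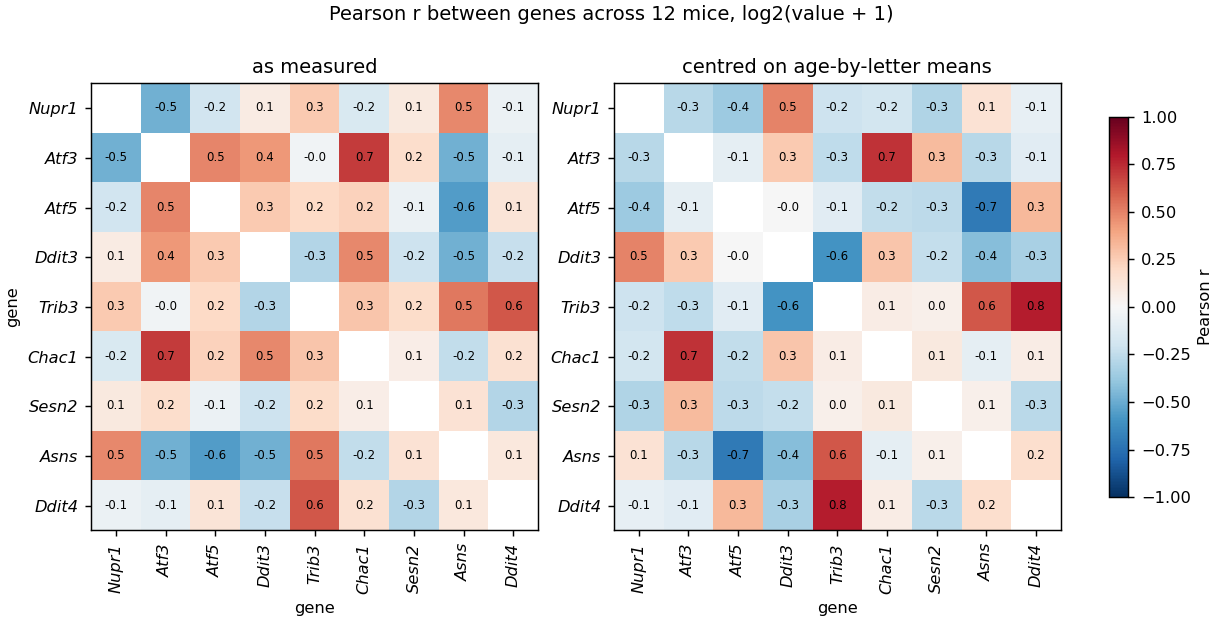
Pearson r between each pair of the 9 genes across 12 mice on log2(value + 1), as measured on the left and after centring on the age-by-letter means on the right. Red is positive and blue negative. Trib3 with Ddit4 (0.62 and 0.79) and Atf3 with Chac1 (0.70 and 0.72) are the highest pairs, and 18 of the 36 pairs lie between -0.3 and 0.3 in both panels.

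The genes whose pattern over 12 mice was most like that of *Nupr1*, among 12353 others, were not members. They were *Cd53*, a tetraspanin of leukocytes (r = 0.96), *Mt1*, a metallothionein (r = 0.91), *Dennd5b* (r = 0.91), *Enpp5* (r = 0.90) and *Sult1a1*, a sulfotransferase (r = 0.88). In each of these the old mean was above the young mean, for example 15.2 and 76.3 normalized read counts for *Cd53*. After centring, which takes out the age difference, the 5 were replaced by *Blvrb*, *Rpl32*, *Hnrnpf*, *Nop10* and *Rpl23*, with r from 0.92 to 0.93. The 2 sets of 5 share no gene. Among the 5 other members with a mean of at least 10, *Asns* came nearest to *Nupr1* as measured (rank 517, r = 0.48) and *Ddit3* after centring (rank 1317, r = 0.50), where *Asns* ranked 4691 (r = 0.14).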

How the data were processed

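The members and lists were chosen with earlier results of these data known. RNA-seq of LSK-SLAM cells of 12 mice was read from the deposited table of normalized read counts, a signal: the authors scaled each gene's reads by library size and a factor, per 1000000 reads, and the factors equal upper-quartile factors computed here. The labels name STAR 2.5.4b, FastQC 0.11.8, edgeR 3.24.3 and mm10. A table with the authors' own fold changes and p-values was not used. All values were whole multiples of 1 read (within 0.01), so reads could be recovered. Limma 3.58.1 in R 4.3.3 (eBayes with trend) was run on log2(value + 1), for genes with a mean of at least 10, with Benjamini-Hochberg adjustment over all genes tested and a call at 0.05. The procedure was tested on simulated data. P-values measure the spread between mice. Alternatives were other pseudocounts and minimum means, no trend, the letter as a covariate or each letter alone, rescaling, edgeR 4.0.16 and DESeq2 1.42.0 on recovered reads, thinning, a replicate block and leaving out each mouse. Named genes were the members, genes called in a list with the 2 largest changes per list, and the 5 genes most like *Nupr1*. Annotation was GENCODE vM21, figures used Python 3.11.15, and lists are described by counts and medians.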

Additional observations from a re-analysis of the deposited data

Results flagged for a closer look

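Of the 18 groups examined (9 genes in young and in old mice), 3 held a mouse that stood apart from its group by Dixon's criterion, which chance flags in about 1 of 20 groups. *Nupr1* reached 139 normalized read counts in old mouse 4, where the other old mice had 51.3 to 87.5. *Trib3* stood at 21.2 in young mouse 2, where the other young mice had 6.84 to 10.4. *Chac1* stood at 29.3 in the same young mouse, where the others had 0.981 to 6.22.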

How the results depend on the processing

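For age, 13 genes were called. The count was 22 with a minimum mean of 30, 2 without the trend, 37 with the letter as a covariate, 1 in letter A alone, 100 in letter B alone, 5 after rescaling by median ratios, 58 with DESeq2 and 3 to 32 when each mouse was left out. *Nupr1*, the 1 member called, was lost (0 members) without the trend, in letter A alone, after rescaling and when young mouse 3 or 4 or old mouse 1, 2, 3 or 6 was left out (0 to 1). Its log2 fold change ran from 1.40 to 1.76. Of the genes in the 15 lists, 0 were called without the trend, in letter A alone or after rescaling, and 2 with the letter as a covariate or DESeq2 (*Fosl2* and *Vldlr*). In letter B alone 6 were called, and 0 to 1 when each mouse was left out. The 6 were *Vldlr*, higher, and *Ccna2*, *Mcm6*, *Mki67*, *Top2a* and *Tyms* of the S-phase and G2/M list, lower. For the letter, 1456 genes were called with a minimum mean of 30 and 2943 to 5003 when each mouse was left out, the lowest without young mouse 2. There, 2 members were called with a minimum mean of 1 (*Atf3* and *Chac1*) and 1 after thinning to the shallowest mouse (*Atf3*, which passed the minimum mean of 10 there). The cause of these shifts was not tested, except that minimum means change which genes are tested.

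Same-numbered young and old mice are different animals, and their deviations correlated at 0.18, -0.56, 0.40, 0.61 and 0.04. With a replicate block over replicates 1 to 5, 19 genes, 1 member and 1 gene of the lists were called. Without the block in the same mice, a fit added after the data were seen, the counts were 8, 0 and 0. Fits with a minimum mean of 1 under rescaling, thinning or with a mouse left out were also added then. Counting error limits *Atf3*, *Atf5* and *Chac1*, where 3 reads were worth 0.583 to 3.69 normalized read counts.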
